A study of Mus musculus with 1504 samples.

Results

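The lung cells described here are capillary endothelial cells and pericytes, taken as the 2 sides of the capillary wall and set against each other over all genes and over 201 pairs of a ligand and its receptor. Both were chosen by measured reads, in CPM, the reads of a gene per 1000000 reads of the cell. A cell of the endothelial column sets EC1, EC2 and EC3 was called capillary endothelium when it had at least 50 CPM of Gpihbp1, at least 100 CPM of Cd93 and under 100 CPM of Ednrb. A cell of the column sets Mural1 and Mural2 was called a pericyte when at least 2 of Cox4i2, Higd1b, Trpc6 and Lamc3 reached 20 CPM, Pdgfrb reached 1000 CPM and Myh11 stayed under 500 CPM. All cells had under 10000 CPM of Sftpc and Scgb1a1 together, the transcripts of alveolar type 2 and club cells. The rule kept 572 capillary endothelial cells of 769 EC columns and 56 pericytes of 361 Mural1 and Mural2 columns, which makes 628 of the 1504 cells of the series. The capillary cells lay in EC1 (184), EC2 (209) and EC3 (179), and the pericytes in Mural1 (23) and Mural2 (33).

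All cells came from lungs of adult C57BL/6 mice aged 12 to 15 weeks by the sample labels (10 to 19 weeks by the series design) and were read by SMART-seq2, which copies whole polyadenylated transcripts. The EC columns were taken as the cells labelled Cldn5(BAC)eGFP, in which a bacterial artificial chromosome drives green fluorescent protein from the Cldn5 promoter. The mural column names give no reporter. The mural genotypes of the labels are Pdgfrb(BAC)eGFP/NG2dsRed and Pdgfrb(BAC)eGFP, and NG2 is the product of Cspg4. Levels of Cldn5, Pdgfrb and Cspg4 therefore follow in part from the sorts.

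A capillary is a tube of endothelium enclosed, together with pericytes, by a shared basement membrane. Endothelial cells release PDGF-B, which holds pericytes at the vessel through PDGF receptor beta, and pericytes release angiopoietin-1, which acts on the endothelial receptor Tie2. Endothelin, sphingosine 1-phosphate, Notch ligands and nitric oxide also pass signals between the 2 cell types. In the lung the general capillary cell carries the lipase anchor Gpihbp1 and is distinct from the aerocyte, a capillary cell marked by Ednrb and Car4.

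Reads in genes ran from 100725 to 415018 per capillary cell (median 195803) and from 101303 to 385616 per pericyte (median 147475), and summed to 114549244 and 9720649. Capillary cells held a median of 1870 genes and pericytes 2875, and after each cell was thinned to 50000 reads these medians were 1587 and 2484. The labels do not tell animals, plates or dates apart. Each side therefore counted as 1 sample, no test was possible, and differences below have no replicate check. The bounds given are exact 95% intervals on the reads. They cover counting error only, since the reads carry no molecular identifiers. A share of cells with a read is given after thinning to 50000 reads, with the unthinned share in parentheses. Where a side had no read, 3 reads were taken as its limit, which is 0.0262 CPM for capillary endothelium and 0.309 CPM for pericytes.

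The labels of both sides were checked against marker lists. All 5 general capillary markers outside the rule (Aplnr, Plvap, Kit, Sema3c and Hpgd) passed the size rule given below as higher in capillary endothelium. All 12 pan-endothelial markers were present in capillary endothelium and 2 in pericytes, and 10 passed as higher and 2 did not pass. They include Cldn5, whose level follows in part from the sort. Every capillary cell held at least 5 of the 12 after thinning, against 1 of the 56 pericytes. Their summed level had a median of 29552 CPM in capillary cells and 1770 CPM in pericytes. Of the 7 pericyte markers outside the rule, 5 passed as lower in capillary endothelium, and at least 3 of the 7 were held by 0 capillary cells and all 56 pericytes. Markers of other vessel and mural cells were found too. At least 5 of 8 arterial markers were held by 65 capillary cells and 0 pericytes, and at least 5 of 11 smooth muscle markers by 0 capillary cells and 18 pericytes. Of the cells outside vessels, at least 5 of 10 fibroblast markers were found in 0 capillary cells and in 31 pericytes. Their summed level had a median of 0 and a highest value of 2772 CPM in capillary cells, against 2484 and 36741 CPM in pericytes. At least 5 alveolar type 2 markers were found in 0 capillary cells and 5 pericytes, and at least 5 of 11 leukocyte markers in 1 capillary cell and 2 pericytes. Without the wells that held at least 5 epithelial or leukocyte markers, an alternative chosen after seeing the data, 350 genes passed as higher and 535 as lower in capillary endothelium, against 345 and 533 with them.

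Values at the limits of the rule are a description of it. The capillary cell nearest the Gpihbp1 limit had 53.0 CPM and the nearest excluded EC column that met all else 43.9 CPM. For Cd93 these were 136 and 68.4 CPM, and for Ednrb 86.7 and 150 CPM. The pericyte nearest the Pdgfrb limit had 1002 CPM and the nearest excluded mural column 894 CPM, and for Myh11 these were 497 and 624 CPM. The genes of the rule had 1672 and 9.67 CPM (Gpihbp1), 4097 and 10.7 CPM (Cd93), 1.33 and 1445 CPM (Cox4i2), 3.39 and 769 CPM (Higd1b), 1.17 and 976 CPM (Trpc6) and 1.71 and 6161 CPM (Pdgfrb) in capillary endothelium and pericytes. Their values are a description. The rule genes are among the genes and pairs counted below, where 2 of them passed as higher and 5 as lower, and they are left out of the counts over gene lists.

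The start regions of 4 genes are shown because their genes form the endothelin and the Notch pair that joined the 2 sides, each with its ligand high in capillary endothelium and its receptor high in pericytes. Each is the 250 bases before an annotated start in RefSeq (GRCm38.p6), read along the gene. The regions are chr13:42301226-42301475 (plus strand) for the ligand Edn1, chr8:77724453-77724702 (minus strand) for its receptor Ednra, chr2:119325534-119325783 (plus strand) for the ligand Dll4 and chr17:32166891-32167140 (minus strand) for its receptor Notch3. Capitals mark matches, on either strand, to one of 5 motifs, namely ETS (CCGGAA or CAGGAA), RBPJ (TGGGAA), HIF (ACGTG or GCGTG), TEAD (GGAATG) and the CArG box.
Edn1: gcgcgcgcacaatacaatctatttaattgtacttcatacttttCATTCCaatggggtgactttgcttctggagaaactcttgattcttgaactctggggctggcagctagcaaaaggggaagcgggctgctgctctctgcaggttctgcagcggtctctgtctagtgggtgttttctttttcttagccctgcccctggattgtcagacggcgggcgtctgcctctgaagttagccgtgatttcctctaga
Ednra: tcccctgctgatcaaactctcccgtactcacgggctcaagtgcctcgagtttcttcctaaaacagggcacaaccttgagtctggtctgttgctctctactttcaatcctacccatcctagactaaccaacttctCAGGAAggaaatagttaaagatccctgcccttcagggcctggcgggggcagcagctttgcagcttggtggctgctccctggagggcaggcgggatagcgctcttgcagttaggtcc
Dll4: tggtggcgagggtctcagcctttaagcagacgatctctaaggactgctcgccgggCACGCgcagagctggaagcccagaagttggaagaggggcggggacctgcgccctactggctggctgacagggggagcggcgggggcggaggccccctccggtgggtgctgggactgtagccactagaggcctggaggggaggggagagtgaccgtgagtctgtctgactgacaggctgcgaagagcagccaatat
Notch3: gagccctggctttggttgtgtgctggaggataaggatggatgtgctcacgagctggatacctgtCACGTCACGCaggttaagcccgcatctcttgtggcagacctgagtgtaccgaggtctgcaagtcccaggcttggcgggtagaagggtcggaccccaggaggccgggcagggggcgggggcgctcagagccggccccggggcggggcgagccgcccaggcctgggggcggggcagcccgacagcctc
The window of Edn1 held 1 TEAD match, that of Ednra 1 ETS match, that of Dll4 1 HIF match and that of Notch3 2 HIF matches, and none of the 4 held an RBPJ or CArG match. The ETS letters, which are bound by the ETS factors of endothelium, stood in 38.2% of 330 start regions of genes higher in capillary endothelium, in 30.7% of 528 regions of genes lower there, and in 36.4% of 19204 regions of all genes of the table. The shares were 21.5%, 23.7% and 21.2% for RBPJ, 41.8%, 47.0% and 46.5% for HIF, 14.9%, 12.5% and 11.7% for TEAD and 0.909%, 2.65% and 1.29% for CArG. A match is a run of letters and was not tested as a binding site.

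The size rule asked for a fold of at least 4 and, on the side with the higher level, for 50 CPM or more and for a read in 25% or more of the thinned cells. Of 21947 genes, 345 (1.57%) passed as higher in capillary endothelium and 533 (2.43%) as lower. Present, with at least 50 CPM and 25% of cells, were 1595 genes (7.27%) in capillary endothelium and 3178 (14.5%) in pericytes, of which 1194 were present on both sides. All 345 higher genes had each of the 3 EC sets above both mural sets, and 531 of the 533 lower genes had each EC set below both mural sets. These genes were picked by their fold in the same reads, so such agreement was partly fixed in advance, and the sets are no replicates. The fold of at least 4 held in every pairing of an EC set with a mural set for 271 of the higher and 407 of the lower genes. The median difference of log2(CPM + 1), capillary endothelium minus pericytes, was 0.05 over all genes and -0.18 over genes present on either side. Scaling by TMM or by median ratios moved the genes by 0.20 or 0.17 on the log2 scale, so small differences hold only relative to that shift.

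**Figure D1:**
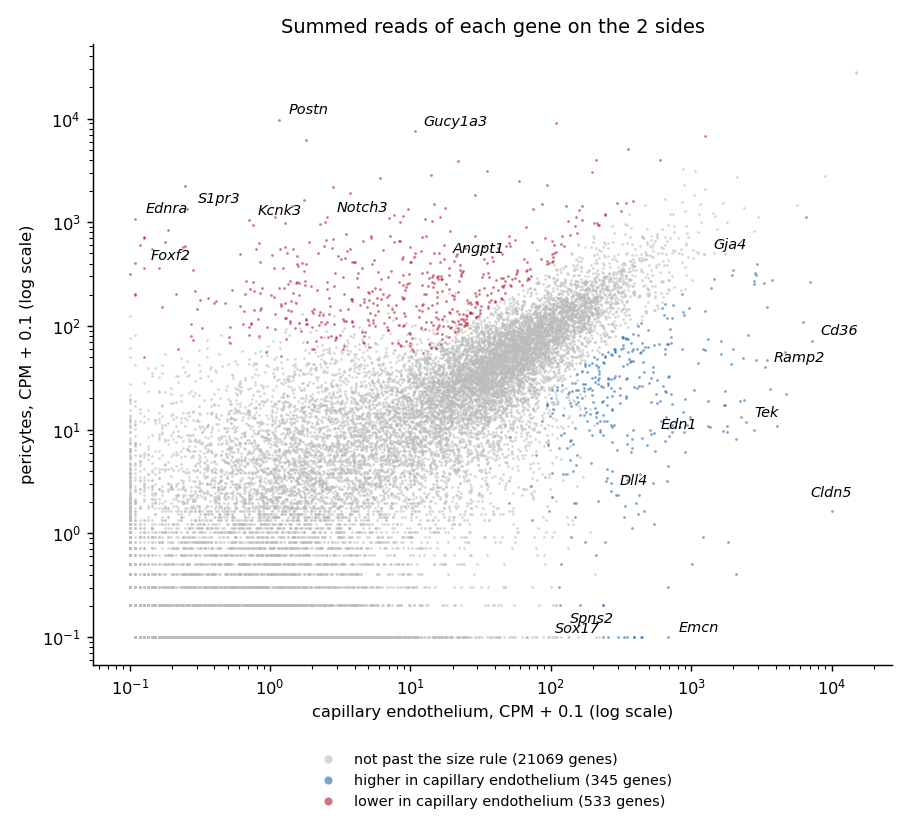
Each point is 1 of the 21155 genes with a read on either side, with its CPM in the summed reads of 572 capillary endothelial cells on the x axis and of 56 pericytes on the y axis, both as CPM + 0.1 on log scales. The 345 genes higher in capillary endothelium (blue) lie below the diagonal cloud and the 533 lower genes (red) above it, with Cldn5 and Emcn at the lower right and Postn, Ednra and Gucy1a3 at the upper left.

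The named genes with the largest folds on the capillary side were surface, junction and transcription factor genes of endothelium. Cldn5, the main claudin of endothelial tight junctions, had 12640, 8487 and 9504 CPM in EC1, EC2 and EC3, against 0 and 2.66 CPM in Mural1 and Mural2. All its 15 pericyte reads came from a single cell. Podxl, a sialomucin of the luminal surface, had 1669, 2088 and 1735 CPM in the EC sets, against 0.490 and 0.887 CPM in the mural sets. Eltd1, an adhesion receptor of endothelium, had 1207 CPM (1201 to 1213) in capillary endothelium and 0.823 CPM (0.355 to 1.62) in pericytes. The SoxF factor Sox7 had 684 and 0.206 CPM, the tetraspanin Tspan18 1022 and 0.412 CPM, and the flavin monooxygenase Fmo1 2076 and 0.309 CPM on the 2 sides. The EC and mural sets did not overlap in any of these genes, which were picked by their folds in the same reads.

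A further 6 genes at the top of the capillary side had no read in 56 pericytes. Emcn, an endothelial sialomucin, had 556, 808 and 673 CPM in EC1, EC2 and EC3 with a read in 46.2% (50.3%) of capillary cells. Spns2, the transporter that releases sphingosine 1-phosphate, had 446 CPM, the apelin receptor Aplnr 388 CPM and the guanylate-binding protein gene Gbp4 441 CPM. The protocadherin gene Pcdh17 had 351 CPM and the phosphodiesterase-like gene Smpdl3a 390 CPM. Of the 345 higher genes, 10 had no pericyte read, and 146 had a median of 0 over capillary cells, so they rested on part of the cells.

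On the pericyte side the largest folds were in receptors, transcription factors and secreted proteins. Postn, the matrix protein periostin, had 0.335, 0.332 and 2.63 CPM in EC1, EC2 and EC3, against 8570 and 10547 CPM in Mural1 and Mural2, and every pericyte held it. Foxf2, a forkhead factor known for its role in brain pericytes, had 2 capillary reads and 602 CPM in pericytes (587 to 618). Heyl, a Notch target factor, had 0.0558, 0.190 and 0 CPM in the EC sets and 931 and 768 CPM in the mural sets. Agtr1a, an angiotensin II receptor, had 0.0437 and 550 CPM, and the Ras-like gene Rasl12 0.0262 and 722 CPM in capillary endothelium and pericytes. Ndufa4l2, a relative of a respiratory chain subunit, had 0.0262 and 360 CPM, and the secreted Dickkopf relative Dkk3 0.0262 and 710 CPM. Rarres2, the gene of chemerin, had no read in capillary endothelium and 351 and 291 CPM in Mural1 and Mural2.

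Some of the genes lower in capillary endothelium were uneven among pericytes. Spp1, the gene of osteopontin, had 0.148 CPM in capillary endothelium and 2229 CPM in pericytes, but the median pericyte had none and 41.1% (44.6%) held a read. C1s1, a complement protease with a near copy in mouse, had 1 capillary read and 405 CPM in pericytes, and reads of the copies could not be told apart. Of the 533 lower genes, 170 had a median of 0 over pericytes. In 3 of them, Dcn, Mgp and Serpine2, a single pericyte gave over 50% of the reads, namely 98.7%, 60.9% and 51.4%. These 3 were named after their values were seen.

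**Figure D2:**
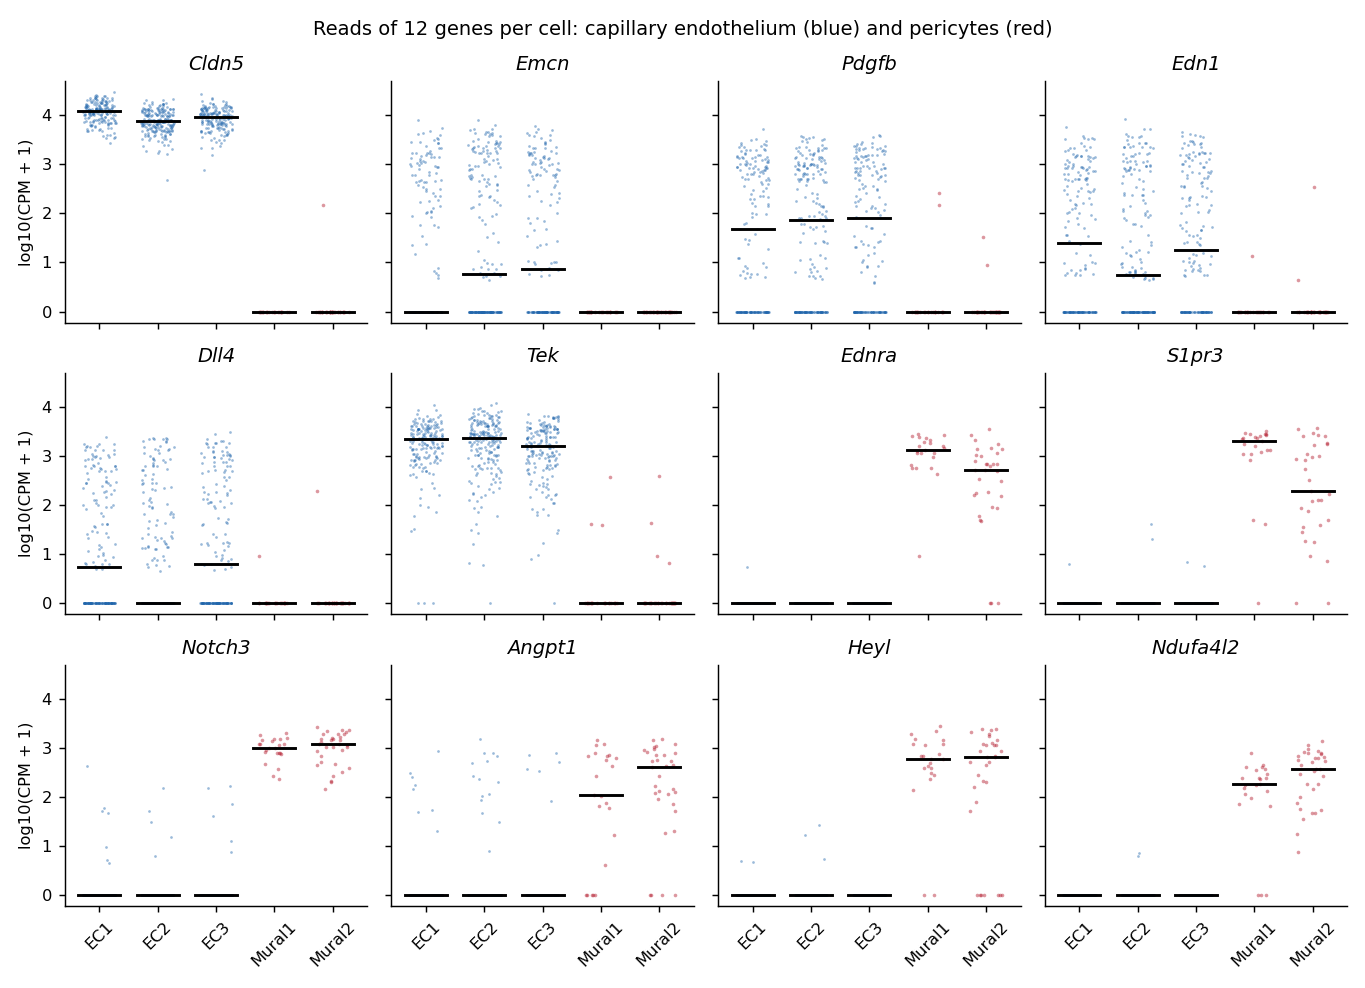
Each point is a cell and each black line a set's median, with log10(CPM + 1) on the y axis and the sets EC1, EC2, EC3 (capillary endothelium, blue), Mural1 and Mural2 (pericytes, red) on the x axis. Cldn5 and Tek fill nearly all capillary cells, Emcn, Edn1 and Dll4 a part of them, and Ednra, S1pr3, Notch3 and Heyl most pericytes.

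Of the 201 pairs of a sender gene and a receiver gene, all had both genes measured. A pair was counted in a direction when both genes were present, the sender on one side and the receiver on the other. This gave 21 pairs with the sender in capillary endothelium and the receiver in pericytes, and 17 pairs the other way. Within a side, 20 pairs were present in capillary endothelium and 29 in pericytes. In 12 pairs the 2 genes passed the size rule on opposite sides, 8 with a capillary and 4 with a pericyte sender, and 1 of the 12, Pdgfb with Pdgfrb, holds a gene of the rule. Of 148 senders outside the rule, 21 passed as higher and 23 as lower in capillary endothelium, and of 130 receivers 26 and 19. Over all genes 1.57% passed as higher and 2.43% as lower. Of those senders 31 were present in capillary endothelium and 38 in pericytes, and of those receivers 44 and 47. Over all genes 7.27% were present in capillary endothelium and 14.5% in pericytes. Levels are those of RNA, and no contact or secretion was measured.

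Among capillary senders, Pdgfb, the ligand that recruits pericytes, had 537, 529 and 590 CPM in EC1, EC2 and EC3, against 13.5 and 0.887 CPM in Mural1 and Mural2. A read of it was found in 57.7% (63.3%) of capillary cells and 5.36% (7.14%) of pericytes. Its relative Pdgfa went the other way, with 10.7 CPM in capillary endothelium and 501 CPM in pericytes. Pdgfra, the receptor for Pdgfa and a marker of fibroblasts, had 3.74 and 0.309 CPM and was present on neither side.

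Edn1, the gene of the constrictor peptide endothelin-1 (chromosome 13, 42301476 to 42307990, GRCm38), had 512, 507 and 538 CPM in EC1, EC2 and EC3, against 0.735 and 14.9 CPM in Mural1 and Mural2. Over all cells its level was 518 CPM (514 to 522) in capillary endothelium and 8.95 CPM (7.17 to 11.0) in pericytes. A single pericyte gave 95.4% of the pericyte reads, and the shares of cells with a read were 50.3% (58.2%) and 3.57% (5.36%). Its receptor gene Ednra (chromosome 8, 77663031 to 77724464) had 1 read in all 572 capillary cells, or 0.00873 CPM (0.000221 to 0.0486), and 1080 CPM (1059 to 1101) in pericytes. In Mural1 and Mural2 it had 1527 and 756 CPM and a read in 92.9% (94.6%) of pericytes. Ednrb, the other endothelin receptor, was under its limit in capillary cells by the rule and had 3.09 CPM in pericytes. Ece1, which cuts the precursor of endothelin, had 1626 CPM in capillary endothelium and 71.0 CPM in pericytes.

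The Notch pair was Dll4, a membrane-bound ligand, with Notch3, the receptor known from mural cells. Dll4 (chromosome 2, 119325784 to 119335962) had 242, 236 and 328 CPM in the EC sets and 0.245 and 4.08 CPM in the mural sets, with a read in 40.6% (49.1%) of capillary cells. Notch3 (chromosome 17, 32120820 to 32166852) had 3.63, 1.40 and 2.54 CPM in the EC sets and 1070 and 1156 CPM in the mural sets, and every pericyte held it. Over all cells these were 2.46 CPM (2.18 to 2.77) in capillary endothelium and 1120 CPM (1099 to 1141) in pericytes. The target genes were split as well, with Hey1 at 296 CPM in capillary endothelium and 6.28 CPM in pericytes and Heyl at 0.0873 and 837 CPM. The ligand Jag1 did not pass the size rule, with 108 CPM in capillary endothelium and 140 CPM in pericytes. It counted as present in pericytes only, since in capillary endothelium it met the minimum level but not the minimum share of cells. The receptor Notch1 did not pass either, with 301 and 374 CPM, and was present on both sides. Notch2, with 33.3 and 577 CPM, passed as lower in capillary endothelium and, like Notch3, was present in pericytes only.

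Spns2 and S1pr3 formed the sphingosine 1-phosphate pair. Spns2, described above, had 418, 426 and 495 CPM in the EC sets and no read in the mural sets. S1pr3, a receptor coupled to contraction in smooth muscle, had 0.0279, 0.356 and 0.0547 CPM in EC1, EC2 and EC3, against 1769 and 1058 CPM in Mural1 and Mural2, with a read in 0.350% (0.874%) of capillary cells and 89.3% (94.6%) of pericytes. S1pr1, the receptor that seals the endothelial barrier, had 1372 CPM in capillary endothelium and 10.6 CPM in pericytes, so the transporter and a receptor also met within capillary endothelium.

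Of the guidance genes, Sema3c had 2326 CPM in capillary endothelium and 49.5 CPM in pericytes, of which Mural1 had 1.23 and Mural2 84.4 CPM. Sema3f had 274 and 52.1 CPM on the 2 sides. Their receptor Nrp2, a neuropilin, had 8.83 and 103 CPM. Nrp1, another receptor paired with Sema3c, had 1452 and 281 CPM and passed as higher in capillary endothelium. Sema3c with Nrp1 was therefore counted within capillary endothelium as well as from capillary endothelium to pericytes. Ntn1, the gene of netrin-1, had 303 CPM in capillary endothelium and no read in pericytes, and its receptor Unc5b had 14.1 and 161 CPM. Bmp6, a bone morphogenetic protein, had 539 and 1.13 CPM, and Bmpr1a, a type I receptor for this family, 6.96 and 123 CPM. The median pericyte had no read of Bmpr1a or Unc5b.

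Among pericyte senders, Angpt1, which keeps endothelium quiescent, had 7.81, 24.1 and 18.1 CPM in EC1, EC2 and EC3, against 393 and 486 CPM in Mural1 and Mural2. Its level in capillary endothelium was 26.1 times lower (24.8 to 27.6). Tek, the gene of its receptor Tie2, had 2480, 2725 and 2094 CPM in the EC sets and 15.0 and 9.40 CPM in the mural sets, a fold of 209 (174 to 253). Tie1, the partner of that receptor, had 874 and 14.7 CPM, a fold of 59.4 (50.4 to 70.5). Angpt2, which can oppose Angpt1, did not pass, with 106 CPM in capillary endothelium and 387 CPM in pericytes.

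Pgf, placental growth factor, had 0.768 and 149 CPM in capillary endothelium and pericytes, and its receptor Flt1 had 488, 550 and 564 CPM in the EC sets against 77.7 and 4.97 CPM in Mural1 and Mural2. Bmp5 had 4.26 and 161 CPM. Bmpr2, a type II receptor known for its role in pulmonary hypertension, had 2328, 3002 and 3039 CPM in the EC sets and 353 and 212 CPM in the mural sets and was present on both sides. In the annotation used here, the exons of Dll4, Bmp5, Bmp6, Bmpr1a and Angpt1 overlap those of a gene on the other strand by 214, 1878, 224, 290 and 737 bases. For Notch3, Spns2, S1pr3 and Edn1 this overlap is 488, 131, 45 and 35 bases. Whether the counting used strand is not given, so reads of such partners cannot be told apart.

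**Figure D3:**
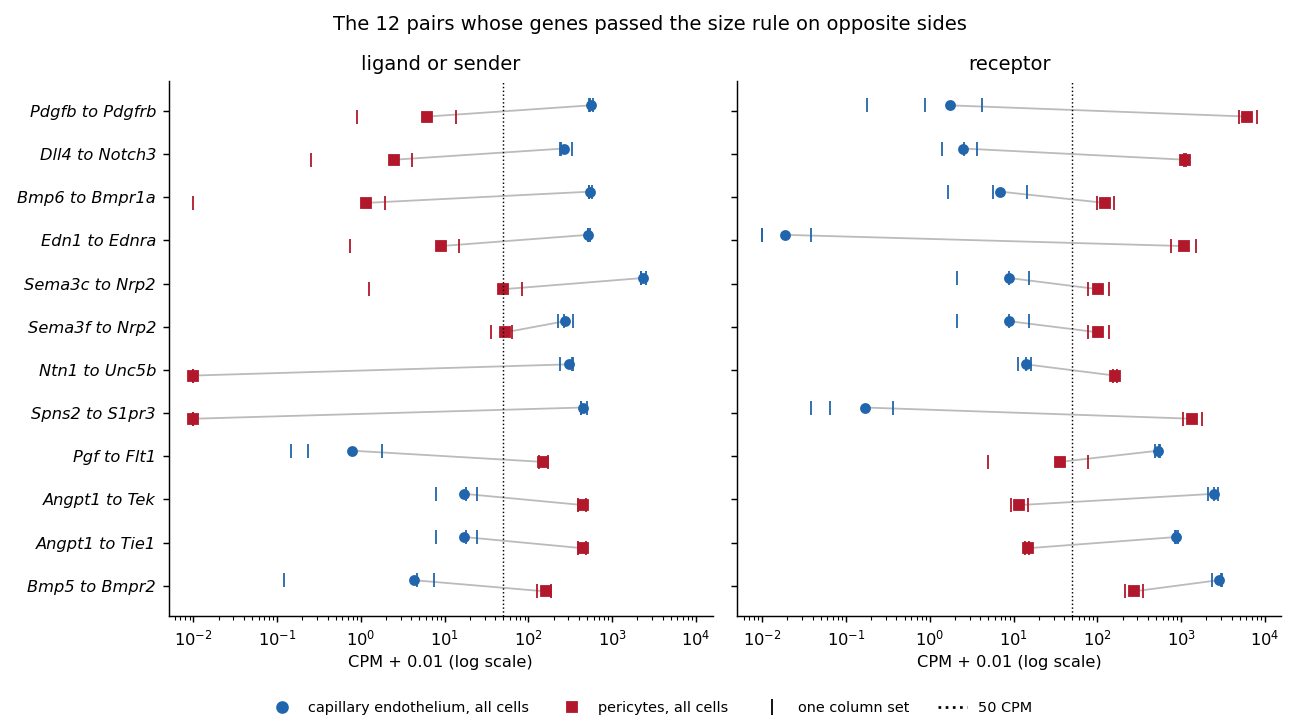
Each row is 1 of the 12 pairs whose genes passed the size rule on opposite sides, with the sender's CPM in the left panel and the receiver's in the right, both as CPM + 0.01 on log scales. Circles (blue) are capillary endothelium, squares (red) pericytes, ticks the column sets and the dotted line 50 CPM. In the upper 8 pairs the sender and in the lower 4 the receiver was higher in capillary endothelium, and among the receivers the sides lie furthest apart for Ednra and S1pr3.

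Gene lists were described by how many members passed, next to the 1.57% and 2.43% of all genes and the median difference of 0.05 over all genes. Of 28 junction and surface genes, 12 passed as higher and 2 as lower, with a median difference of 2.67 in log2(CPM + 1). Cdh5 (VE-cadherin) had 2375 and 19.4 CPM and Pecam1 2785 and 9.88 CPM in capillary endothelium and pericytes. The 2 lower members were Cdh2 (N-cadherin), with 1.70 and 105 CPM, and the connexin gene Gjc1, with 53.1 and 285 CPM. Of 26 endothelial transcription factors, 8 passed as higher, among them Sox17, with 330 CPM and no pericyte read, and Gata2, with 428 and 2.26 CPM. The 1 lower member was Nr2f2, a factor known from veins, with 6.22 and 541 CPM.

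Of 33 mural and mesenchymal transcription factors, 13 passed as lower in capillary endothelium and 1, Hey1, as higher, with a median of -2.35. Tbx2, a T-box factor, had 9.47 and 1338 CPM, Tcf21, which is also a lung fibroblast marker, 0.114 and 204 CPM, and Foxs1 0.218 and 179 CPM in capillary endothelium and pericytes. Of 26 contractile and cytoskeletal genes, 12 passed as lower and 0 as higher. The smooth muscle marker list shares genes with this list, such as Des and Acta2, so it is no separate evidence. Of its 10 markers outside the rule, 5 passed as lower. All 11 summed to 69.9 CPM in capillary endothelium (50.2 to 90.5 over the EC sets) and 1626 CPM in pericytes (1634 and 1619 in Mural1 and Mural2), and their part in the result was not tested. Des (desmin) had 0.733 and 631 CPM and Myl9, a myosin light chain, 0.506 and 499 CPM. Acta2, smooth muscle actin, reached 3.75 and 176 CPM, in cells whose Myh11 the rule held under 500 CPM.

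Of 24 nitric oxide and cyclic nucleotide genes, 6 passed as higher and 6 as lower. The higher ones included Cav1, the main caveolin, with 3463 CPM in capillary endothelium and 152 CPM in pericytes, and the adenylate cyclase gene Adcy4, with 626 and 26.1 CPM. Nos3, the endothelial nitric oxide synthase, did not pass and was present on neither side, with 47.0 CPM in capillary endothelium, where 14.0% (15.9%) of cells held a read, and 0.206 CPM in pericytes. Its pairs with Gucy1a3 and Gucy1b3 were therefore not counted. Gucy1a3 and Gucy1b3, the subunits of the nitric oxide receptor soluble guanylate cyclase, had 10.6 and 13.9 CPM in capillary endothelium, against 7516 and 2869 CPM in pericytes. Pde5a, which breaks down its product cyclic GMP, had 19.8, 20.1 and 25.6 CPM in EC1, EC2 and EC3, against 4234 and 3612 CPM in Mural1 and Mural2. Of 53 vasoactive receptors 6 passed as higher and 6 as lower. The higher ones included Ramp2, a part of the adrenomedullin receptor (3344 and 39.9 CPM), Npr1, a natriuretic peptide receptor (345 and 20.1 CPM), and Adrb1, a beta adrenergic receptor (309 and 25.1 CPM). The lower ones included Ednra, Agtr1a and S1pr3.

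Of 21 potassium channel genes 2 passed as lower and 0 as higher. Kcnk3, the pore gene of the TASK-1 channel, had 1.76, 0.0949 and 0.0547 CPM in the EC sets and 1307 and 853 CPM in the mural sets. Abcc9, a subunit of ATP-sensitive channels, had 2.20 and 108 CPM. Its partner Kcnj8 did not pass, with 6.82 and 133 CPM. Rgs5, known as a pericyte marker of brain, had 3.53 and 37.5 CPM and was present on neither side. Of 27 calcium, chloride and mechanosensitive channel genes 2 passed as higher and 6 as lower, the lower ones including the calcium channel subunit Cacna2d1 (0.978 and 93.2 CPM) and the calcium pump Atp2b4 (5.36 and 429 CPM). Of 26 RGS and small GTPase regulators 6 passed as higher, such as Rasip1, which shapes endothelial tubes (538 and 2.98 CPM), and 9 as lower, such as Arhgap42 (0.655 and 949 CPM).

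Of 26 basement membrane genes 11 passed as lower in capillary endothelium and 1, Lama5, as higher. Lama5, a laminin alpha chain of endothelium, had 212, 240 and 298 CPM in EC1, EC2 and EC3, against 0 and 7.09 CPM in Mural1 and Mural2. Lama2, another alpha chain, had 3.29 and 449 CPM, and vitronectin (Vtn) 2.69 and 687 CPM. Of 32 fibrillar and elastic matrix genes 14 passed as lower and 0 as higher, with a median of -3.77. Col1a1 had 2.65 and 564 CPM and Col6a1 1.81 and 650 CPM. The fibroblast marker list shares genes with this list, such as Col1a1, so it is no separate evidence. Of its 10 markers 6 passed as lower. All 10 summed to 53.8 CPM in capillary endothelium (30.6 to 89.2 over the EC sets). In pericytes they summed to 4278 CPM (3856 and 4584 in Mural1 and Mural2), and their part in the result was not tested. Of 8 adventitial fibroblast markers, 4 (Ly6a, Cd34, Dpp4 and Igfbp4) passed as higher, 0 as lower, and the other 4 did not pass. All 8 summed to 7068 CPM in capillary endothelium and 200 CPM in pericytes. Ly6a, whose level is given below, made up most of the capillary sum. In 2 pericytes the sum of the 10 fibroblast markers, not the adventitial ones, reached 10000 CPM. Without these 2 pericytes, an alternative also chosen after seeing the data, 348 genes passed as higher and 519 as lower. Of 17 integrins Itga3 and Itga5 passed as higher and 3 as lower.

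Genes of lipid uptake and exchange were higher in capillary endothelium in 5 of 30 members and lower in 3. Cd36, a fatty acid carrier of the surface, had 6830, 7296 and 7470 CPM in the EC sets and 15.0 and 114 CPM in the mural sets. Lpl, the lipase that Gpihbp1 anchors, had 379 and 6.58 CPM. Of 23 aquaporin, caveola and transcytosis genes 8 passed as higher and 2 as lower, with the water channel Aqp1 at 2908 and 47.3 CPM and Plvap, the diaphragm protein of fenestrae and caveolae, at 2096 and 8.02 CPM. Of 31 haemostasis and prostanoid genes 7 passed as higher and 2 as lower. Ace, the angiotensin-converting enzyme, had 2200, 2283 and 2150 CPM in the EC sets against 0.245 and 32.5 CPM in the mural sets, and the prostaglandin-degrading enzyme gene Hpgd had 3646 and 24.6 CPM. Of 33 solute carriers and other genes of the brain barrier 3 passed as higher, among them the efflux pump Abcb1a (118 and 0.412 CPM), and 2 as lower.

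Antigen presentation and interferon genes were higher in capillary endothelium in 10 of 16 and 10 of 24 members, with medians of 2.55 and 2.00. The class I gene H2-K1 had 3774 and 277 CPM, and the class II gene H2-Ab1 1888, 1257 and 830 CPM in EC1, EC2 and EC3, against 38.2 and 101 CPM in Mural1 and Mural2. The leukocyte marker list summed to 81.7 CPM in capillary endothelium and 655 CPM in pericytes (179 and 1000 in Mural1 and Mural2). Ly6a, known as Sca-1, had 5906 and 48.5 CPM. The interferon list also held 2 lower members, one of them Ifitm1 with 3.58 and 551 CPM. The H2, Ly6 and Gbp genes have near copies, so the split of reads among them is uncertain. Of 22 immediate early and heat shock genes 0 passed as higher and 3 as lower, namely Fos (24.6 and 127 CPM), Egr1 (13.4 and 67.5 CPM) and Hspa1a (2.75 and 105 CPM), which also respond to tissue dissociation.

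Of 21 glycolysis genes 0 passed in either direction, and their median difference was 0.06. Aldoa had 377 CPM in capillary endothelium and 399 CPM in pericytes, and Ldha 133 and 105 CPM. Of 14 mitochondrial and respiratory genes outside the rule Ndufa4 passed as higher, with 198 and 24.0 CPM, and Ndufa4l2 as lower.

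**Figure D4:**
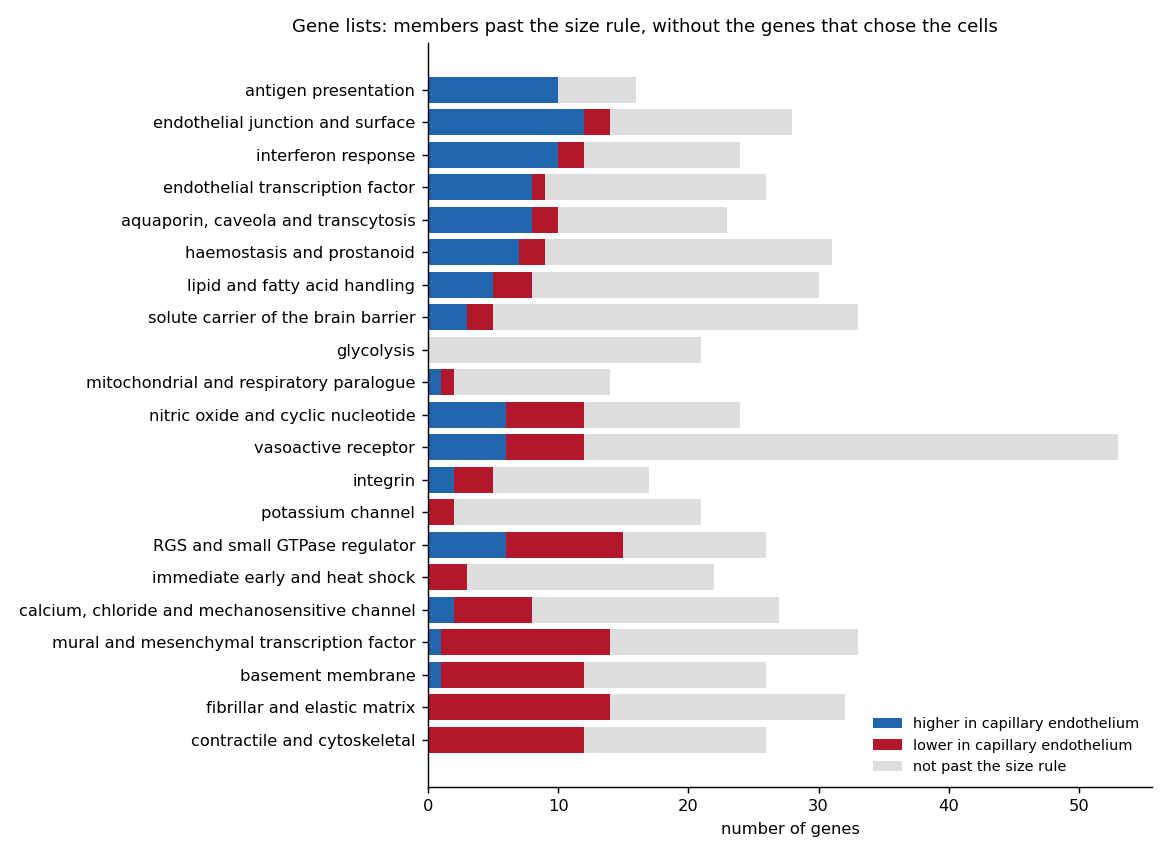
Bars count the members of 21 gene lists (x axis, number of genes) that passed the size rule as higher (blue) or lower (red) in capillary endothelium or did not pass (grey), without the genes that chose the cells. Antigen presentation, with 10 of 16 higher, stands at the top and contractile genes, with 12 of 26 lower, at the bottom, and no glycolysis gene passed.

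The 30 pairs of related genes were chosen with earlier results of these data known. Of these pairs, 10 had 1 gene past the size rule as higher and the other as lower, 1 of them with a gene of the rule. Of all genes, 1.57% passed as higher and 2.43% as lower. In 15 pairs a single gene passed and in 5 neither did. Levels of relatives were compared as CPM per kb of exon. Notch3 made up 0.525% of the sum of Notch3 and Notch4 in capillary endothelium (58.2 CPM per kb of Notch4 and 0.307 of Notch3) and 98.9% in pericytes (1.48 and 140 CPM per kb). The share of S1pr3 beside S1pr1 was 0.00782% in capillary endothelium and 98.9% in pericytes, and that of Heyl beside Hey1 0.0157% and 98.6%. Lama2 beside Lama5 made up 1.51% and 99.2%, Pdgfa beside Pdgfb 1.90% and 98.8%, Bmp5 beside Bmp6 0.737% and 99.3%, and Rasgrp2 beside Rasgrp3, guanine exchange factors for Ras-like proteins, 2.88% and 96.4%. Ndufa4l2 made up 0.00884% of the sum with Ndufa4 in capillary endothelium and 90.9% in pericytes. The 2 sides did not overlap by column set in any of these pairs, whose genes had passed in the same reads.

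In other pairs at least 1 gene did not pass. Foxf1, a forkhead factor of lung mesenchyme and endothelium, had 525 CPM in capillary endothelium and 309 CPM in pericytes and did not pass, and Foxf2 made up 0.00339% and 66.6% of the pair per kb. The connexin gene Gja4 had 1235 and 490 CPM and did not pass, and Gjc1 made up 2.60% and 26.5% of that pair. Cox4i2, which chose pericytes, made up 0.397% and 82.2% of the sum with Cox4i1, a subunit whose own level was 324 and 303 CPM. Higd1b, also a gene of the rule, made up 24.9% and 98.9% beside Higd1a and was uneven among the EC sets, at 38.9%, 6.30% and 2.25% in EC1, EC2 and EC3.

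**Figure D5:**
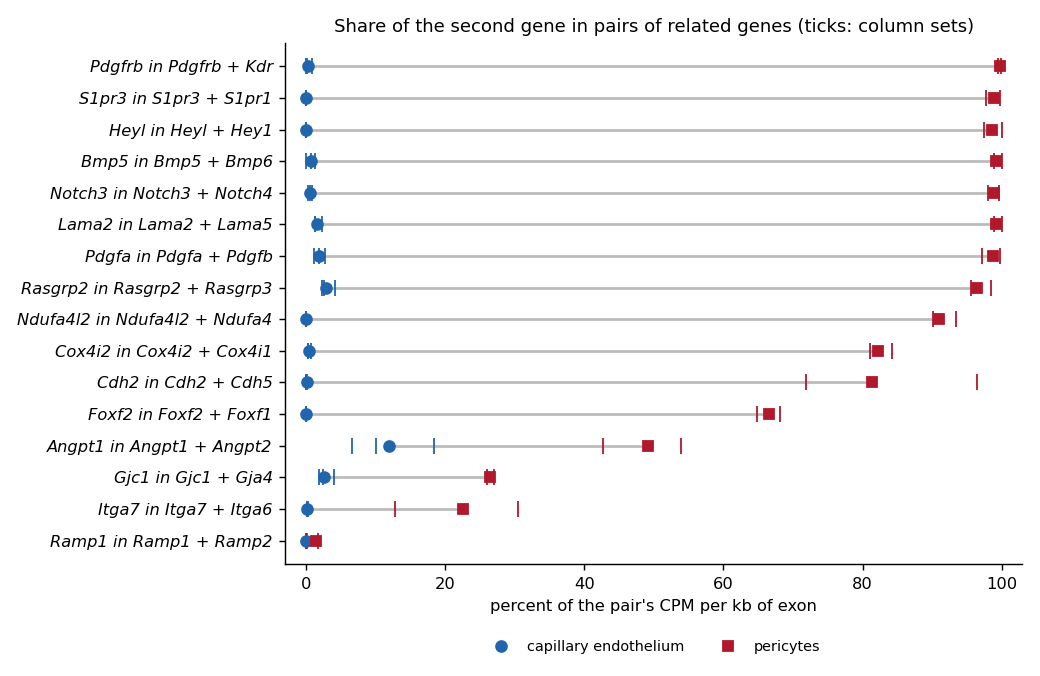
The x axis is the percent that the second gene gives of its pair's summed CPM per kb of exon, for 16 pairs of related genes whose higher member had at least 20 CPM per kb on both sides. Circles (blue) are capillary endothelium, squares (red) pericytes and ticks the column sets, and Cox4i2 and Pdgfrb are genes of the rule. S1pr3, Heyl, Notch3 and Lama2 stand near 0% in capillary endothelium and over 98% in pericytes, whereas Ramp1 stays near 0% on both sides.

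Set against cells outside the rule, part of each side's genes extended to its neighbours and part did not. Cldn5 had 10111 CPM in capillary endothelium and 16460 CPM in the 87 EC columns with at least 100 CPM of Ednrb, where aerocytes are sought, and Cd36 7206 and 7567 CPM. Edn1 had 518 CPM in capillary endothelium and 32.5 CPM in those columns, and Sox17 330 and 36.7 CPM. Aplnr had 388 and 67.9 CPM, Ntn1 303 and 17.6 CPM and H2-Ab1 1318 and 179 CPM in the same order of groups. Tbx2 was lower in capillary endothelium, with 9.47 CPM against 496 CPM in the columns with Ednrb. Postn had 9717 CPM in pericytes and 919 CPM in the 225 other Mural1 and Mural2 cells that met the limit on Sftpc and Scgb1a1. Ednra had 1080 CPM in pericytes and 191 CPM in those other cells, Notch3 1120 and 214 CPM and Kcnk3 1044 and 127 CPM. Col1a1 had 564 CPM in pericytes, against 3511 CPM in the other Mural1 and Mural2 cells and 6753 CPM in Mural3. These groups are other cells of the series. Whether Mural3 came from the same sort as Mural1 and Mural2 is not given, and the differences were not tested.

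Within capillary endothelium few genes passed the size rule between sets. Between EC1 and the other EC sets 0 genes passed as higher and 3 (0.0137%) as lower, namely Prph, Nr1d1, a gene of the circadian clock, and Etnk1, and none passed for EC2 or EC3. Within pericytes, 201 genes (0.916%) passed as higher and 148 (0.674%) as lower in the 23 cells of Mural1 against the 33 of Mural2. Of these 349, 28 had also passed between capillary endothelium and pericytes, where 878 of all 21947 genes passed. The counts within the 2 sides rest on unequal numbers of cells, since the EC sets held 179 to 209 cells each. The effect of cell number on these counts was not tested. Lyz2, a macrophage and type 2 cell gene, had 2.45 CPM in Mural1 and 552 CPM in Mural2, Dcn 12.0 and 1265 CPM, and Serpine2 49.5 and 685 CPM. Fibin had 189 and 9.75 CPM and Flt1 77.7 and 4.97 CPM. The alveolar type 2 markers, Sftpc included, summed to 69.1 CPM in Mural1 and 1308 CPM in Mural2.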

How the data were processed

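Single lung cells had been sorted and read by SMART-seq2. The authors deposited raw read counts, and beside them a second table of rescaled scores. The submitters' processing notes name STAR 2.4.2a and the build mm10. How reads were counted, with which annotation and strand setting, is not given in the sources used here. Each of the 33009792 deposited scores equalled, within 1, the reads times 500000 over the cell's total, and scores entered 1 alternative only. The EC columns were taken as Cldn5(BAC)eGFP cells, and the mural columns kept their set names, since these give no reporter. The unit of every result was the CPM of reads summed over the cells of a side or set. Each side was 1 sample, so no test was run. Precision was given by exact 95% Poisson intervals on reads and conditional intervals on ratios (SciPy 1.17.1, pandas 2.3.3, Python 3.11.15). For the size rule a side under 3 reads was set to 3 reads, and printed folds use the reads as counted. No doublet caller was run, and no cell barcode is shared, since the 1504 column names are distinct. The procedure was tested on simulated data.

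The members, the 21 function lists (560 of 563 entries measured), the 17 marker lists (140 of 143), the 201 pairs and the 30 pairs of relatives were chosen with earlier results of these data known. Named were the 12 largest folds either way, at most 4 members per list, the genes of pairs on opposite sides and the relatives, without unnamed, ribosomal or mitochondrial genes. Genes named outside this rule (Kit, Ece1, Cav1, Adcy4, Nos3, Pdgfra, Jag1, Notch1, Notch2, Nrp1, Mgp, Prph, Nr1d1 and Etnk1) were chosen after their values were seen. Coordinates count from 1 in GRCm38 (GENCODE annotation), where 20745 of 21947 symbols had 1 place, and start regions came from RefSeq (GRCm38.p6). Alternatives used TMM factors from edgeR 4.0.16 on the deposited counts, other limits and cell rules, and left out each column set in turn.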

Additional observations from a re-analysis of the deposited data

How the results depend on the processing

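With the cells and limits as described, 345 genes were higher and 533 lower in capillary endothelium, with 21 and 17 pairs in the 2 directions and 12 on opposite sides. A fold of at least 2 gave 556 higher and 904 lower genes. With no minimum level or share these were 2811 and 5147 genes and 45 opposite pairs, and pairs by presence cannot be counted there. With no minimum share 626 genes were higher, and 40 pairs from capillary endothelium to pericytes, 28 the other way and 23 opposite pairs were counted. Leaving out each column set in turn gave 339 to 378 higher genes, 524 to 607 lower genes, 20 to 25 and 17 to 18 pairs, and 11 to 17 opposite pairs. The other alternatives stayed within 1.5 times of these counts, TMM scaling with 375 higher and 486 lower genes and median ratios with 367 and 492. Of the 136 named genes past the size rule, 3 turned round, and the cause was not tested. The log2 difference of Igfbp4 was -1.23 (capillary endothelium minus pericytes) under the looser cell rule. The log2 difference of Lyz2 ranged from -3.95 (without Mural1) to 3.86 (without Mural2) and had 1.32 without wells of epithelial or leukocyte markers, an alternative chosen after seeing the data. The log2 difference of Fibin ranged from -3.95 (without EC2) to 0.67 (without Mural1). Sizes moved more often than directions. Of the 136 genes, 74 moved over 1.5 times under the looser cell rule, 63 without Mural2 and 54 without Mural1. Under the looser rule 8 of them no longer passed. The fold of Ace, for example, ranged from 68 (without Mural1) to 3012 (without Mural2). That of Angpt1 ranged from 20.9 (without EC1) to 34.3 (without EC2), wider than its counting interval given above. With 56 pericytes and 9720649 reads, a pericyte level of 0 allows up to 0.309 CPM, the limit of 3 reads. No paired analysis was possible because the column sets carry no replicate numbers shared between the sides and no test was run.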

Other observations

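Beside the pairs that joined the 2 sides, some pairs had both genes present within capillary endothelium, among them Dll4 with Notch4, Bmp6 with Bmpr2, Lama5 with Itga3 and Lpl with Gpihbp1, a gene of the rule. Notch4, an endothelial Notch receptor, had 384 CPM in capillary endothelium and 9.77 CPM in pericytes, and Itga3 191 and 14.2 CPM. Within pericytes the pairs included Pdgfa with Pdgfrb, a gene of the rule, Bmp5 with Bmpr1a, Cdh2 with itself, and Postn and Vtn with the integrin gene Itgav. None of the pairs of adrenomedullin and apelin, natriuretic peptides or EGF, FGF, HGF and IGF ligands was counted in any direction or side, although the receptor genes Ramp2, Aplnr and Npr1 had 3344, 388 and 345 CPM in capillary endothelium, against 39.9, 0 and 20.1 CPM in pericytes.

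Some markers of other vessel classes were present in capillary endothelium. Of all genes, 7.27% were present there and 14.5% in pericytes, and 1.57% passed as higher and 2.43% as lower. Of 8 arterial markers 5 were present, and 4 passed as higher and 0 as lower, with Efnb2 at 687 CPM and Cxcl12 at 892 CPM in capillary endothelium, against 10.4 and 9.46 CPM in pericytes. Of 7 venous markers 1 was present, Vwf, with 716 and 22.0 CPM, and 1, Nr2f2, passed as lower. Of 6 lymphatic markers 2 were present, Lyve1 and Flt4, with 444 and 136 CPM in capillary endothelium, against 8.23 and 7.72 CPM in pericytes. Of 7 aerocyte markers outside the rule 2 passed as higher and 3 as lower. Car4, which marks aerocytes, had 719, 566 and 255 CPM in EC1, EC2 and EC3, against 35.8 and 5.85 CPM in Mural1 and Mural2. None of 6 cell cycle markers was present on either side. Mki67 had 3.15, 14.2 and 0.575 CPM in EC1, EC2 and EC3, against 0 and 25.0 CPM in Mural1 and Mural2, so its direction rested on Mural2.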
